A study of Homo sapiens with 4 samples.

Results

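Isolated recurrent peaks of SAF-A are places where every library had a peak and no other peak shared by 2 or more libraries lay close by. They were chosen by the deposited peak positions themselves: peaks of the 4 lists were merged on chromosomes 1 to 22 where they shared at least 1 bp, and a merged region was kept when all 4 lists had a peak in it and no other region present in 2 or more lists lay within 100 kb on either side. The rule kept 491 of the 19822 regions called in all 4 lists (2.48%), out of 236215 merged regions. The other 19331 regions called in all 4 lists, here the other recurrent regions, served for comparison. Because presence and spacing chose the regions, their presence in every list and their distance from other peaks are given below as descriptions.

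SAF-A (scaffold attachment factor A, also HNRNPU) is an abundant nuclear protein that binds both RNA and DNA. It was first described as binding the AT-rich DNA by which chromatin loops attach to the nuclear scaffold, and it is known to link nascent RNA to chromatin in interphase and to be released from most of the chromatin in mitosis. CUT&Tag reads such occupancy by letting an antibody bring a transposase to the bound protein, which then cuts and tags the DNA around it. The cells were wild-type RPE1, an immortalised human retinal pigment epithelial line. The 4 libraries are replicates 3 and 4 of asynchronous cells (labelled Async) and of mitotic cells (labelled Sync (M)). Each took 100000 cells and 1 pg of E. coli DNA as a spike-in. How the cells were synchronised is not stated in the labels. Nor do the labels call replicates separate cultures, and any p-value below therefore reflects variation among these 4 samples, possibly technical. Where 4 values stand in a row, asynchronous replicates 3 and 4 come first and mitotic replicates 3 and 4 follow.

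The summit height of a peak is given as its pileup, the number of fragments stacked at its highest position, which was recovered from the deposited fold enrichment and p-value. The libraries differed in depth. The genome background, the smallest local background in a list, was 1.38, 1.17, 1.17 and 1.79 fragments. Chromosomes 1 to 22 held 74627 to 111887 peaks per list. Positions are on the build hs1, the complete telomere-to-telomere human assembly, and no gene or repeat annotation of that build was used here, so no gene is assigned to any region.

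Isolated regions made up a larger part of recurrent regions on chromosomes where such regions were sparse. Chromosome 4 held 50 of them, 9.69% of its 516 recurrent regions (95% Wilson interval 7.43% to 12.5%), and chromosome 13 held 25, 6.16% of 406 (4.21% to 8.93%). Both chromosomes are known to be poor in genes. On the gene-rich chromosomes 17 and 19 the numbers were 11 of 1116 (0.986%, interval 0.551% to 1.76%) and 10 of 1001 (0.999%, 0.544% to 1.83%). The intervals cover counting error only. Per length, the chromosomes lay closer together, with 2.58 isolated regions per 10 Mb on chromosome 4, 2.20 on chromosome 13, 1.31 on chromosome 17 and 1.62 on chromosome 19. Chromosome 15 was the sparsest, with 3 isolated regions or 0.301 per 10 Mb, although its 682 recurrent regions stood at a middling 6.84 per Mb. Chromosome 9, with 12 isolated regions, and chromosome 22, with 3, were also low, at 0.797 and 0.585 per 10 Mb. Across the 22 chromosomes the isolated share fell with the density of recurrent regions (Spearman rho = -0.87, Pearson r = -0.70). The rule itself ties the 2 quantities together, so the relation is a description.

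**Figure D1:**
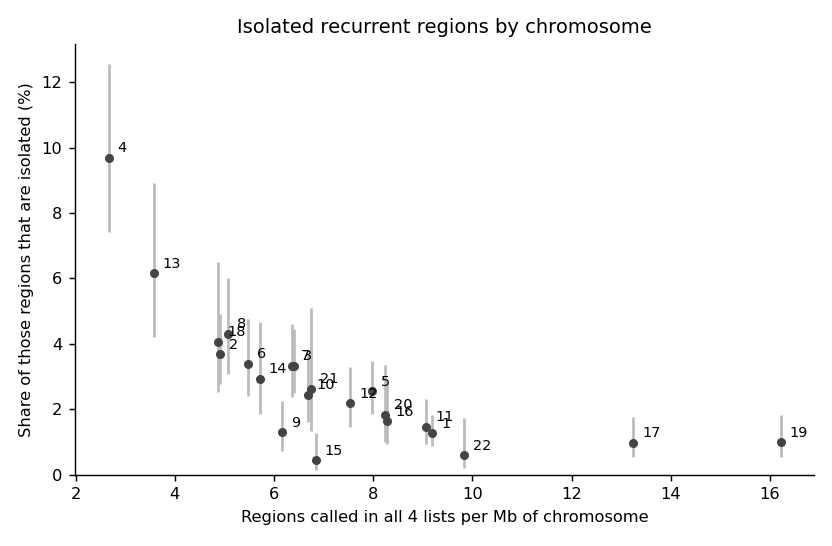
Share of regions called in all 4 lists that were isolated (vertical axis, percent, bars are 95% Wilson intervals) against the number of such regions per Mb (horizontal axis), with 1 labelled point per chromosome. Chromosome 4 (9.69%) and chromosome 13 (6.16%) stand highest at the lowest densities, and chromosome 15 (0.440%) lies under chromosomes of like density.

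The surroundings were poor in peaks but seldom empty. Within 100 kb of an isolated region there was a median of 4 regions found in a single list, and at most 26. Only 46 of the 491 (9.37%) had no peak of any list within that distance. Around the other recurrent regions the median was 38 merged regions, 11 of them present in 2 or more lists. The nearer neighbour present in 2 or more lists lay at a median of 170 kb from an isolated region (quartiles 124 and 283 kb), against 6.70 kb for other recurrent regions. It lay beyond 200 kb for 207 regions, beyond 500 kb for 51 and beyond 1000 kb for 13. Recurrence was less common where peaks were sparse: of 10099 merged regions with no such neighbour within 100 kb, 85.1% were in 1 list and 4.86% in all 4, against 71.1% and 8.55% of the 226116 regions with a neighbour.

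Most isolated regions stood alone. For 352 of them both next regions along the chromosome present in 2 or more lists were outside the set, while 139 (28.3%) had another isolated region as a next neighbour. There were 59 runs of 2 isolated regions and 7 runs of 3, and no longer run. The runs of 3 included chromosome 8 from 49443467 to 52275586, where 3 isolated regions were the only such regions in 2.83 Mb, chromosome 19 from 19913820 to 21468266 (1.55 Mb), chromosome 3 from 77466670 to 78562402 and chromosome 4 from 115945261 to 116955217. These stretches held peaks of single lists as well.

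Regions just inside and just outside the threshold spanned like heights. The 5 regions just inside it had their nearer neighbour at 100.3 to 100.7 kb, and the first of them, chromosome 4 from 146830298 to 146831179, had summits of 41, 38, 35 and 73 fragments. The fifth, chromosome 3 from 79827412 to 79827789, was the weakest of the 5, at 7, 8, 7 and 10 fragments. The 5 just outside lay at 99.1 to 99.9 kb, among them chromosome 5 from 69037346 to 69038234, with 14, 13, 14 and 20 fragments, and the region on chromosome 2 that starts at 224967425, with 38, 27, 34 and 52.

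Summits of isolated regions were lower than those of other recurrent regions in all 4 libraries. The median isolated summit had 17, 14, 15 and 24 fragments, and the median of other recurrent regions 25, 21, 21 and 34. The ratio of isolated to other was 0.680, 0.667, 0.714 and 0.706, or -0.53 ± 0.05 log2 units (SD, n = 4; exact two-sided sign-flip permutation p = 0.13, the smallest that 4 libraries allow). The difference was larger than the spread between libraries. Against recurrent regions with only 1 to 3 neighbours within 100 kb, a comparison chosen after seeing the data, it was -0.14 log2 units, in the same direction in all 4 libraries (exact p = 0.13). Isolated regions formed the low end of a gradient: the median summit of mitotic replicate 4 was 24 fragments with no neighbour, 26 with 1-3, 31 with 4-10, 36 with 11-20, 42 with 21-40 and 52 with over 40.

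Measured against their own surroundings, the same peaks stood out more. The authors' fold enrichment, the summit over the local background, had a median of 6.64, 6.34, 6.38 and 7.24 in isolated regions and of 5.47, 5.28, 5.23 and 5.74 in the other recurrent regions. The direction of the height difference therefore turned with the measure, from -0.53 log2 units for the pileup to 0.29 ± 0.03 (SD, n = 4) for the fold. The local background, which the rule on neighbours partly sets, was 1.61, 1.33, 1.41 and 2.31 fragments around isolated summits and 3.79, 3.19, 3.08 and 5.02 around the others. It lay within 1% of the genome background at 33.8%, 34.2%, 29.1% and 27.9% of isolated regions and at 2.22% to 2.88% of the others. The peak caller judges a summit against its local background, so a lower summit could be called where that background was low. Lower occupancy and this difference in what could be called cannot be told apart.

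**Figure D2:**
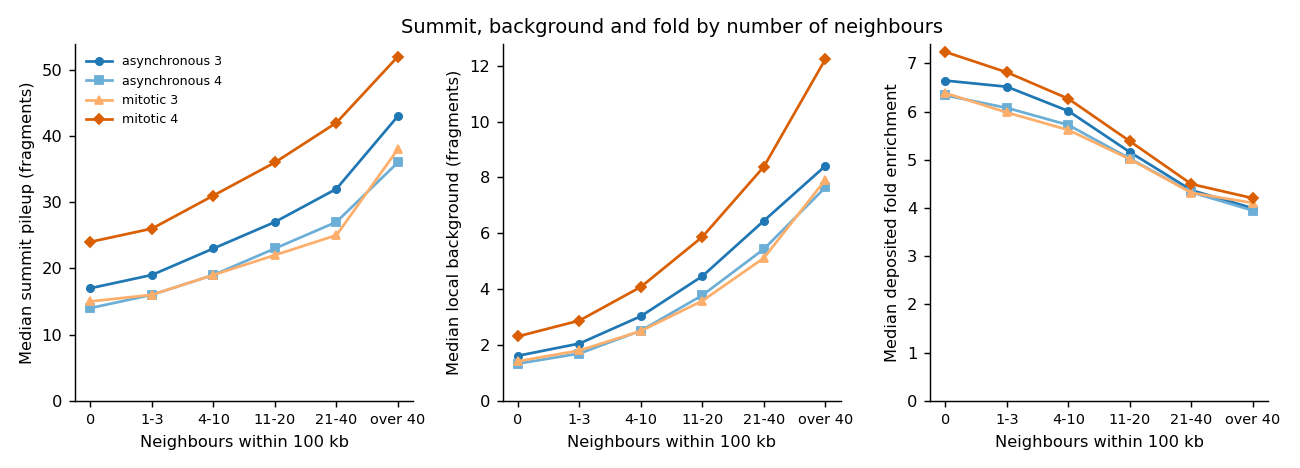
Median summit pileup (left, fragments), median local background (middle, fragments) and median deposited fold enrichment (right) of regions called in all 4 lists, by the number of neighbours within 100 kb, with 1 line per library. Isolated regions are the class with 0 neighbours, which has the lowest summits and background and the highest fold in every library.

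By the authors' q-value, isolated regions ranked among the stronger peaks of each list. Their median percentile was 87.5, 83.0, 84.4 and 89.1, against 88.5, 84.9, 84.8 and 89.5 for other recurrent regions. The strongest 10% of each list took in 182, 136, 173 and 223 of the 491. The shares were 37.1%, 27.7%, 35.2% and 45.4%, against 45.0%, 35.3%, 35.5% and 48.4% of other recurrent regions. Only 17 to 48 isolated regions lay below the median peak of a list.

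Peaks in isolated regions were slightly narrower in all 4 libraries, but at like summit height they were wider. The median width was 474, 399, 432 and 569 bp, against 489, 422, 457 and 583 bp for other recurrent regions. The difference was -19.3 ± 5.56 bp (SD, n = 4; exact sign-flip permutation p = 0.13). Its sign depended on the isolation distance: with 50 kb in place of 100 kb it was 5.25 bp (exact p = 0.25). Within bands of summit height, an analysis chosen after seeing the data, isolated peaks were wider by 55.6, 63.0, 60.0 and 72.3 bp, a mean of 62.7 bp (exact p = 0.13), and by 50.2 bp without the regions at chromosome ends.

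The gap in width grew with height. In the band from -0.5 to 0 log2 units of the library median, 135 isolated regions had median widths of 523, 474, 441 and 625 bp, against 450, 382, 416 and 544 bp in 5164 others. In the band from 0.5 to 1, 18 isolated regions had 784, 706, 766.5 and 846 bp, against 583, 506, 548 and 673 bp. In the lowest band, under -1, the order was mixed: isolated peaks of asynchronous replicate 4 had 280 bp and the others 296 bp. The lower local background of isolated regions moves with this difference, and its part in the width was not tested. Isolated regions filled the low bands, with 53.6% of them below -0.5 log2 units against 22.7% of the others.

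**Figure D3:**
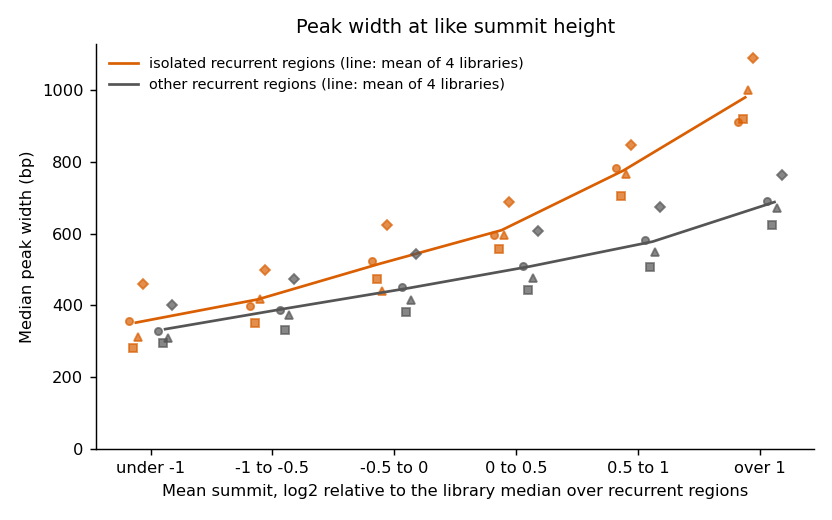
Median peak width (bp) by band of mean summit height, in log2 units of the library median over recurrent regions, for isolated (orange) and other (grey) recurrent regions. Circles and squares are asynchronous replicates 3 and 4, triangles and diamonds mitotic replicates 3 and 4, and lines join the means of the 4 libraries, which are higher for isolated regions in every band.

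The median spread of summit positions over the 4 lists was below the median peak width in both classes. Peaks were merged only where they shared at least 1 bp, which itself keeps the summits of a region near each other. The distance between the outermost of the 4 summits had a median of 159 bp in isolated regions (quartiles 86 and 268.5 bp) and 141 bp in the others (61 and 279 bp). At like height the isolated summits were the closer ones in every band up to 0.5 log2 units, with medians of 259 against 278 bp under -1, 167.5 against 231 bp from -1 to -0.5, 136 against 168 bp from -0.5 to 0 and 107 against 115 bp from 0 to 0.5. In the bands above, the order was the reverse, at 95.5 against 88 bp and 91.5 against 61 bp. A list had more than 1 peak within the merged region at 35 isolated regions (7.13%) and at 2180 others (11.3%). Each spread needs all 4 lists at once, so it has no replicate and no test was made.

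A few isolated regions stood far above the rest. Of the 491, 24 reached a mean of at least 2 times the library median over recurrent regions (4.89%, against 12.0% of the others), yet 5 reached at least 10 times (1.02%, against 0.233%). Among these 5, only a region on chromosome 13 was interior. The rest were the start of chromosomes 3, 18 and 21 and the end of chromosome 12. Chromosome ends that were not isolated were of like height, as given below. The highest of all, on chromosome 13 (12167307 to 12168157), had 6448, 4790, 5282 and 9903 fragments. Its deposited fold enrichment was only 14.9, 14.3, 14.1 and 14.0, so its local background was high too, unlike that of most isolated regions. The much lower end of chromosome 12 had a fold of 27.2, 28.9, 27.1 and 27.9. The peak of the chromosome 13 region was 851 bp wide with the same summit position in all 4 lists, and the nearer neighbour lay 1461 kb away. Of the 10 highest, 7 were the outermost region of a chromosome and 3 were interior.

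The regions at chromosome ends were wide and high. The ends of human chromosomes carry arrays of a short telomeric repeat, followed inward by subtelomeric sequence. At all 44 chromosome ends the outermost merged region was called in all 4 lists. Such a region has no neighbour on its outer side, so the rule could act on its inner side only. Of these 44 regions, 10 were isolated. They lay at the start of chromosomes 3, 4, 13, 14, 18 and 21 and at the end of chromosomes 7, 10, 11 and 12. The highest of the 10 was the end of chromosome 12, from 133322396 to 133324404, with 424, 381, 366 and 670 fragments. The start of chromosome 21, from position 171 to 2447, reached 284, 315, 235 and 549 fragments. The start of chromosome 18, from position 18 to 1923, had 318, 319, 209 and 388. In these 3 regions mitotic replicate 4, the deepest library, was the highest and mitotic replicate 3 the lowest.

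The 10 isolated ends stood at 4.79 to 18.4 times the library median, with a median of 6.81, and their median peak width was 1495 to 2334 bp. The 34 ends that were not isolated were of like height, at 3.35 to 39.8 times with a median of 6.27, and 775 to 3174 bp wide. The 481 interior regions had a median of 0.70 times and 460 bp. By the median of their 4 peak widths, all 5 of the widest isolated regions were chromosome ends, led by the start of chromosome 13 (155 to 2533), whose peaks were 2283 to 2349 bp wide. The ends were singled out after their values were seen, so their level was not tested against the interior regions.

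Beyond the ends, the region on chromosome 13 at 12167307 and 2 other interior regions were among the 10 highest. Chromosome 21 from 16677364 to 16677560 had 242, 250, 177 and 295 fragments in a peak of only 193 to 197 bp, near the narrowest that the lists held (169 to 183 bp). Chromosome 3 from 75487470 to 75488320 had 272, 215, 148 and 263 fragments, with peaks of 787 to 851 bp. Chromosome 2 from 49225536 to 49225730 was not among the 10 highest and was chosen after its values were seen for its narrow peak. It had 94, 79, 78 and 146 fragments in a peak of at most 195 bp in every list. A peak of at most 200 bp in every list was found at 2 isolated regions (0.407%) and at 4 others (0.0207%). Each list also had a very tall peak on the mitochondrial chromosome. Divided by the summit of that peak, the height of the chromosome 2 region had an SD of 0.053 log2 units over the 4 libraries, and divided by the recurrent median an SD of 0.11. For the chromosome 13 region at 12167307 these SDs were 0.079 and 0.16. For the chromosome 21 region at 16677364 the order was the reverse, at 0.27 against the mitochondrial summit and 0.20 against the recurrent median, and likewise for the chromosome 3 region at 75487470, at 0.32 and 0.27. Of the 10 highest isolated regions, 3 varied less against the mitochondrial summit. They were the chromosome 13 region at 12167307, the end of chromosome 12 (0.084 and 0.11) and the start of chromosome 21 (0.25 and 0.27). Whether mitochondrial fragments add to any of these peaks was not tested.

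**Figure D4:**
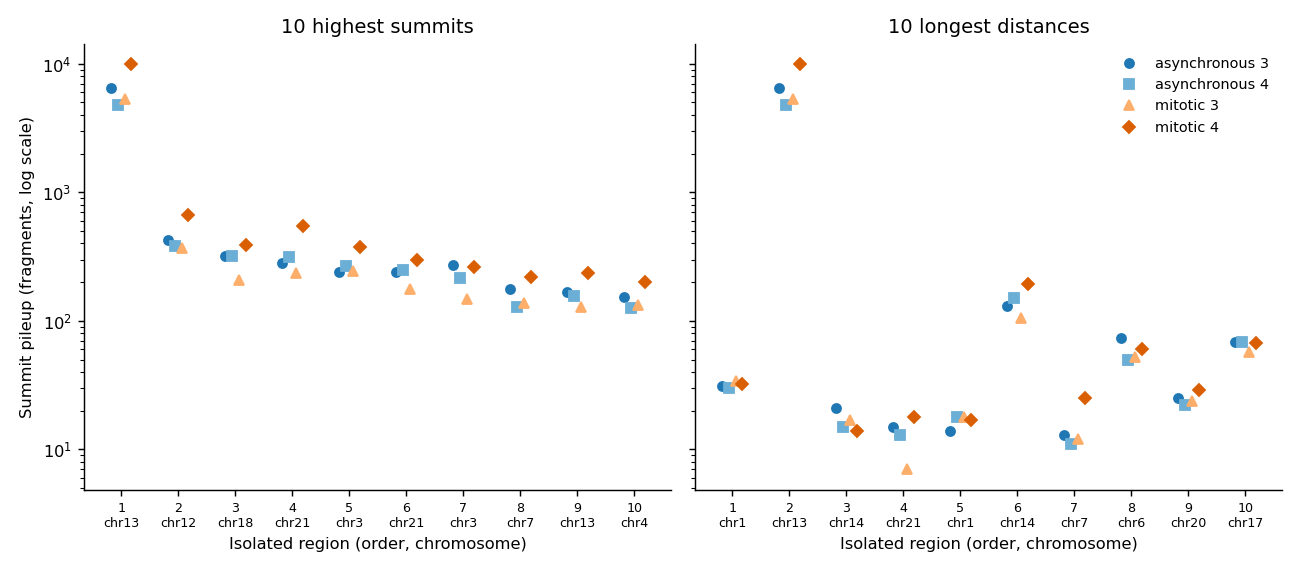
Summit pileup (fragments, log scale) in each library for the 10 isolated regions with the highest summits (left) and the 10 with the longest distance to the nearer neighbour (right), labelled by order and chromosome. On the left mitotic replicate 4 (diamonds) is highest in 9 of 10, and on the right the 4 libraries lie close together for several regions, such as the first, at 30 to 34 fragments.

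Mitotic replicate 4, the deepest library, was not the highest in every isolated region. It had the highest summit in 364 of the 491 isolated regions (74.1%) and in 76.5% of the others, and its genome background was 1.44 times the mean of the other libraries. Among the 38 regions 500 to 1000 kb from a neighbour it was highest in 30 (78.9%), and among the 13 more than 1000 kb away in 7 (53.8%), so the share did not fall steadily with distance. The most remote of all, chromosome 1 from 136276546 to 136277000, had 31, 30, 34 and 32 fragments, and its neighbours lay 2453 and 1862 kb away. The 4 libraries lay within 4 fragments of each other there, whatever their depth. Chromosome 17 from 25604204 to 25604752 had 68, 69, 57 and 67 fragments, and chromosome 6 from 60721456 to 60722071 had 73, 50, 52 and 60. Both were well above the median isolated region in every library, and their summits lay within 28 bp and 1 bp of each other over the 4 lists.

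Several other remote regions were weak. Chromosome 14 from 11485434 to 11485779 had 21, 15, 17 and 14 fragments, so that the deepest library was the lowest. Chromosome 1 from 103373948 to 103375313 had 14, 18, 18 and 17, and chromosome 21 from 7744219 to 7745113 had 15, 13, 7 and 18. Chromosome 7 from 53106586 to 53107054 did follow depth, with 13, 11, 12 and 25 fragments. Chromosome 20 from 31626326 to 31628205 differed in shape: its 25, 22, 24 and 29 fragments at the summit belonged to peaks of 1790 to 1880 bp. Unlike these, the start of chromosome 14 (34 to 2041) was tall, at 131, 150, 106 and 195 fragments. These shares are a description and were not tested.

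No isolated region passed the test for a difference between mitotic and asynchronous cells. Every region tested had a peak in both states by the rule. Sites that lacked a called peak in any of the 4 lists were left out beforehand. These include sites called in 1 state only, which limits the differences that could be seen. Each summit was scaled to the median of its library across the regions called in all 4 lists, which removes any change common to them. By limma with Benjamini-Hochberg adjustment over all 19822 regions, 0 of the 491 passed 0.05, and the smallest adjusted p was 0.124, while 0.0656% of all regions tested passed. The limma prior, a spread shared by regions of like height, had 398 degrees of freedom, against 2 from a region's own libraries. The SE and p of a single region therefore reflect mostly that shared spread and little of its own replicates. At an unadjusted p under 0.05 there were 49 isolated regions (9.98%), against 8.93% of all regions. Of these, 38 were higher and 11 lower in mitotic cells, where the shares over all regions were 4.08% and 4.86%. Mitotic and asynchronous means were within 0.5 log2 units of each other in all but 73 isolated regions (14.9%) and in all but 10.5% of the others.

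The state differences of isolated regions lay slightly above those of other recurrent regions, by an amount that did not pass a test. Both mitotic libraries lay above both asynchronous ones in 110 isolated regions (22.4%), against 17.1% of all regions, and below them in 67 (13.6%), against 20.2%. The median difference, mitotic minus asynchronous, was 0.06 log2 units in isolated regions and -0.02 in the others. With only peaks of at least 183 bp, a width all 4 lists could hold, both medians were negative (-0.0070 and -0.081), 30 isolated regions were higher and 18 lower at an unadjusted p under 0.05, and the isolated median lay 0.07 above that of the others. Within each library the ratio of the median isolated to the median other summit was -0.56 and -0.58 log2 units in asynchronous and -0.49 and -0.50 in mitotic cells, so the groups did not overlap and differed by 0.08 log2 units (exact permutation p = 0.33, the smallest that 2 against 2 libraries allow). This difference was 0.14 with only peaks of at least 183 bp and 0.12 within bands of summit height, both added after seeing the data. Without the regions at chromosome ends the ratio in mitotic replicate 4 was -0.56, the groups overlapped and the difference was 0.05 (exact p = 0.667). These medians are whole numbers of fragments and move in steps of 1.

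At like height the order depended on the band. Below the library median, isolated regions had median state differences of 0.06, 0.09 and 0.09 log2 units in the bands under -1, from -1 to -0.5 and from -0.5 to 0, against -0.01, 0.01 and 0.02 in the others. Above it the sign turned, at -0.01, -0.13 and -0.10 against -0.01, -0.05 and -0.12. Single regions varied more than that between replicates: the SD of the log2 difference between replicates was 0.45 in both states for isolated regions, and 0.39 and 0.40 for the others.

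**Figure D5:**
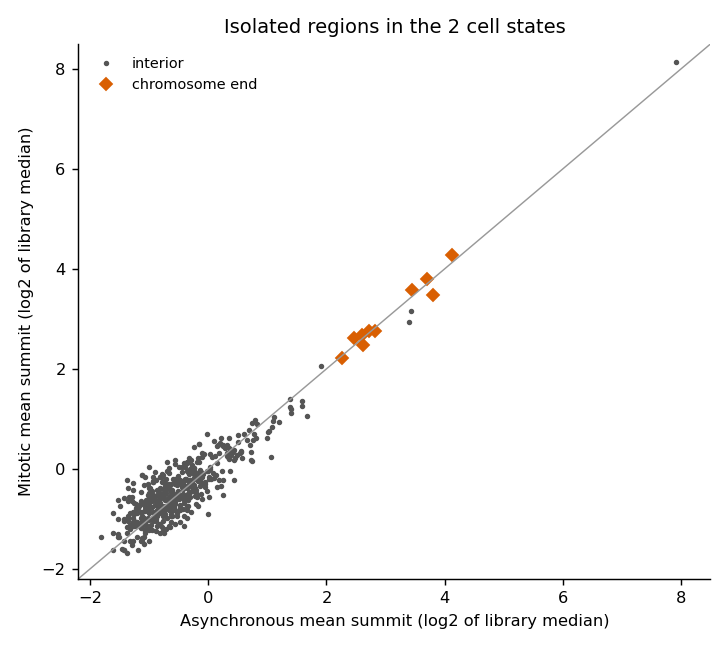
Mean summit in mitotic (vertical) against asynchronous cells (horizontal), each in log2 units of the library median over recurrent regions, for the 481 interior (grey) and 10 chromosome end (orange) isolated regions, with the line of equality. The regions lie along the line over the whole range, most of them below 0, and 0 of 491 passed the test. By the rule all of them had a peak in every library.

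The isolated regions with the smallest p among those higher in mitotic cells had few fragments. The first, chromosome 3 from 4296564 to 4297759, had 11, 7, 18 and 27 fragments, a difference of 1.16 log2 units (SE 0.33, limma adjusted p = 0.124). Chromosome 8 from 97619265 to 97620193 had 13, 10, 26 and 27 fragments (1.05, SE 0.31, limma adjusted p = 0.151). Chromosome 2 from 18861902 to 18862737, with 10, 11, 14 and 40, owed its height in mitotic cells mostly to replicate 4. Chromosome 8 from 7165899 to 7166593 had 14, 8, 19 and 29, and chromosome 7 from 19534656 to 19535214 had 9, 10, 17 and 26. In all 5, both mitotic libraries had more fragments than either asynchronous one, before any scaling for depth.

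In the other direction a region on chromosome 7 (151288649 to 151289137) came first, with 57, 40, 24 and 38 fragments (-0.83 log2 units, SE 0.23, limma adjusted p = 0.126). Chromosome 19 from 8943286 to 8944075 had 88, 61, 39 and 73 fragments (-0.62, SE 0.20, limma adjusted p = 0.201). Chromosome 3 from 75487470 to 75488320, the tall region described above, had a difference of -0.46 log2 units (SE 0.15, limma adjusted p = 0.201). Chromosome 5 from 104588059 to 104588788, with 20, 26, 11 and 17, and chromosome 4 from 9688016 to 9688461, with 32, 23, 16 and 20, completed the 5. No isolated region was called in any of the other limma fits listed in the closing section.

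State differences of the isolated chromosome ends were small. They ran from -0.33 to 0.15 log2 units with a median of 0.06, and none passed the test (smallest limma adjusted p = 0.437). The start of chromosome 18 had the most negative difference, at 14.0 ± 1.75 (asynchronous) and 11.1 ± 0.925 (mitotic) times the library median, each SD with n = 2. The end of chromosome 12 stood at 17.6 ± 0.836 and 19.3 ± 1.42 times, and the highest isolated region, on chromosome 13 at 12167307, at 243 ± 21.1 and 282 ± 25.4 times (each SD, n = 2). A p that misses the threshold does not show that the states were equal.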

How the data were processed

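The assay was CUT&Tag with a commercial kit and an antibody to SAF-A, sequenced as paired ends, per the labels' protocols. Build hs1 and the tools fastp, MACS2, Bowtie2 and bedtools come from the submitters' processing notes. The sources used here do not state versions, parameters, duplicate removal, a control library or whether the spike-in was used. The authors deposited a separate list for each of the 4 libraries. In it, the deposited fold enrichment is the authors' ratio of summit to local background. The p and q are the authors' peak caller's, deposited as -log10 values, and the deposited score, made from q, was not used. These values only described, ranked or filtered peaks within a list, apart from the pileups recovered from them.

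Pileups were solved from fold = (pileup + 1) / (background + 1) and the Poisson p, and those under 200, which were 99.87% to 99.94% of the peaks in a list, came out whole within 0.05. Higher ones were whole in 88.0% to 97.3% of cases. A region's height and width in a library are those of its highest peak. The smallest local background of a list stands for relative depth, since library totals were not used here. Height and width were compared by exact permutation over libraries. States were compared with limma 3.58.1 (trended prior) in R 4.3.3 on log2 scaled pileups. Pileup recovery under 200 fragments, the isolation rule and the limma fit were tested on simulated data. The other steps were not. Arrangements of 4 libraries limit every exact test, as stated beside each.

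Regions named in the text were the 10 highest, the 10 most remote, the 5 widest, the 5 with the smallest p in each direction and the 5 on each side of the threshold. Runs of 3, the other isolated chromosome ends and the narrow region on chromosome 2 were named in addition, after their values were seen. Regions, rules and tests were chosen with earlier results of these data known. Alternatives are given in the closing section. No sequence was printed because no genome of this build was used here.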

Additional observations from a re-analysis of the deposited data

How the results depend on the processing

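How many regions were isolated depended on the rule. There were 1108 with a distance of 50 kb, 207 with 200 kb, 46 when a peak of any list was a neighbour, 2343 when only regions of all 4 lists were, and 893 at a -log10 q of at least 5. The 893, out of 10986 regions called in all 4 lists at that q, included only 262 of the 491. With 3 lists there were 810 without asynchronous replicate 3, 770 without asynchronous replicate 4, 759 without mitotic replicate 3 and 877 without mitotic replicate 4, each including at least 485 of the 491. Lists of equal length gave 565 and a reciprocal overlap of 50% gave 428, with 474 and 278 of the 491.

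Height was recomputed with 50 kb, 200 kb, the stricter q, regions of 1 to 3 neighbours and without chromosome ends. It kept its direction in these. Leaving a library out kept the same isolated regions and only dropped the value of that library. All library values of height and of width were negative, so this step could not turn either sign. Nor could it turn the state difference, because the asynchronous and mitotic values did not overlap. The deposited fold enrichment gave 0.29 log2 units. Height, width and state were not recomputed for the sets found with a library left out, the other neighbour rules, equal lists or reciprocal overlap. The width difference turned to 5.25 bp with 50 kb, 62.7 bp within bands of height and 50.2 bp within bands without chromosome ends, and was -2 bp at the stricter q. Height bands, the removal of chromosome ends, and the comparison of height and width with regions of 1 to 3 neighbours were chosen after seeing the data. The state difference stayed positive, from 0.04 at the stricter q to 0.15 with 200 kb.

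By limma, 0 isolated regions passed in every fit, with smallest adjusted p-values of 0.0725 to 0.337 and 33 to 60 regions at an unadjusted p under 0.05. Calls over all regions ranged from 0 (scaling to the genome background, or no trend) to 35 (a common smallest width of 183 bp), with 6, 3, 1 and 17 when each library was left out in the order above, against 13. With the replicate number as a block there were 0 calls among isolated and 13 among all regions. Replicate differences of the 2 states did not move together (r = -0.05 across regions), so the numbers were not taken as pairs, and the state difference within them was 0.07 and 0.08. Each state has 2 libraries, and at a median of 14 to 24 fragments small changes were not detectable.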
